A study of Rattus norvegicus with 3 samples.

Results

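The 9 interferon response genes Irf1, Irf7, Stat2, Isg15, Ifit3, Mx1, Mx2, Gbp2 and Usp18 were followed in rat cerebellar cortex after a stroke of the cerebral hemisphere. They were chosen by name, through probes whose accession belongs to the RefSeq symbol of a member, and they are 9 of 38973 genes on the array. Male Wistar rats aged 9 weeks underwent transient occlusion of the right middle cerebral artery (MCAO) or sham surgery, and the cortex of the cerebellum was taken 2 days later. The left cerebellar cortex of the MCAO rats, opposite to the infarct, is called contralateral. The right cerebellar cortex of the same rats, on the side of the infarct, is called ipsilateral, and the left cerebellar cortex after sham surgery is the control. Tissue of 4 rats was pooled for each group before RNA was extracted and hybridised to 1 array, so no value has a replicate and no test was possible.

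Each spot of these 1-colour arrays gives a fluorescence signal, and signals were put on the log2 scale and shifted to a common 75th percentile on each array. A log2 ratio of 1 is a doubling, and log2 ratios above 1 or below -1 counted as a change, as in the methods of the study. The error given with each ratio (±) comes from the scanner software and leaves out differences between rats and between hybridisations. It is smaller for genes with more spots, so these pass it at smaller ratios. The contralateral array had 42470 of 58717 non-control spots well above background, the ipsilateral array 43028 and the control array 43283. The ipsilateral array was the dimmest, with a 75th percentile of 1614 before scaling against 2103 contralaterally and 2336 in the control. In all, 23267 genes were well above background on every array through at least 1 probe, and shares of genes below refer to these.

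Interferons are secreted signals of antiviral defence. Type I interferons act through a receptor whose Janus kinases phosphorylate STAT proteins, among them STAT2, which join IRF9 and bind interferon-stimulated response elements. Interferon gamma acts through a receptor of its own, leads to binding at gamma-activated sequences, and induces IRF1 and guanylate-binding proteins. In brain tissue, microglia, astrocytes, endothelial cells and neurons can all respond to interferon.

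Promoter sequences show which members carry letters of these elements near their start. RefSeq promoters of the GRCr8 assembly, from 250 bases before to 50 bases after the start, were on hand for 6 of the 9 members: Gbp2, Ifit3, Irf1, Irf7, Mx1 and Stat2. The core of the interferon-stimulated response element, GAAANNGAA on either strand, stood in 3 of these 6 (Irf7, Ifit3 and Gbp2) and in 9.71% of all 33469 promoters. The core of the gamma-activated sequence, TTCNNNGAA, reads the same on both strands and stood in 1 of the 6 (Irf1) and in 8.87% of all promoters. No promoter of a member held both motifs. The stretches around the matches follow, 5′ to 3′ along the gene, with the matches in capitals. They end at or before the start of the gene. The Irf7 match begins 68 bases before the start (chr1:205800058-205800116, minus strand), the Ifit3 matches 43 and 24 bases (chr1:241527258-241527325, plus strand), the Gbp2 match 30 bases (chr2:234005672-234005726, plus strand) and the Irf1 match 142 bases (chr10:38417768-38417826, plus strand). A match describes letters and is not evidence of a bound site.
Irf7: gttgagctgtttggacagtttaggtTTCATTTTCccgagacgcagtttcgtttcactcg
Ifit3: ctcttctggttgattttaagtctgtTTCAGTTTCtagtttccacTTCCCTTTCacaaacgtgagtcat
Gbp2: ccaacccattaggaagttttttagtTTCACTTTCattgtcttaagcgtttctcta
Irf1: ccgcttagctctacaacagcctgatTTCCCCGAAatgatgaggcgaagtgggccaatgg

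All 9 members were well above background on all 3 arrays, each through 1 probe with 1 spot, and none of these spots was marked as an outlier. No member passed a log2 ratio of 1 or -1 in any of the 3 comparisons. Among all 23267 genes, 1.5% lay above 1 and 1.04% below -1 on the contralateral side relative to control, 3.47% and 0.868% on the ipsilateral side, and 0.245% and 1.99% between the contralateral and ipsilateral sides. At these shares, 0 of 9 members past the threshold does not set the members apart from other genes. Both ratios to control share the same control array.

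The ratios differed from member to member in size and direction. Relative to control, 6 of 9 members were lower contralaterally and 4 of 9 ipsilaterally, against 48.1% and 43.6% of all genes. The median log2 ratio of the members was -0.09 contralaterally and 0.01 ipsilaterally, where the median of all genes was 0.01 and 0.03. Ifit3 and Mx2 were higher than control on both sides, and Irf7, Isg15 and Usp18 were lower on both sides by more than their scanner error. In the tissue as a whole, fewer cells of a type and less RNA per cell cannot be told apart.

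Scaling bears on small ratios. Without scaling between arrays, the median of all genes shifted by -0.15 contralaterally and -0.53 ipsilaterally, and with spike-in scaling by -0.09 and -0.24. Every ipsilateral ratio to control between 0 and 0.53 given below therefore turns negative without scaling, as does every contralateral one between 0 and 0.15, and ratios between the sides rise by 0.38. Normexp, a model-based background correction used with an offset of 50, and adding 50 to each signal compress ratios of dim spots by construction. The 9 members were also read relative to the median of all genes in each of 10 alternative processings. On the contralateral side, all 9 stayed on the same side of that median in every alternative. On the ipsilateral side 7 did so, and the exceptions were Irf1 and Gbp2, which lay within 0.1 of the median.

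**Figure D1:**
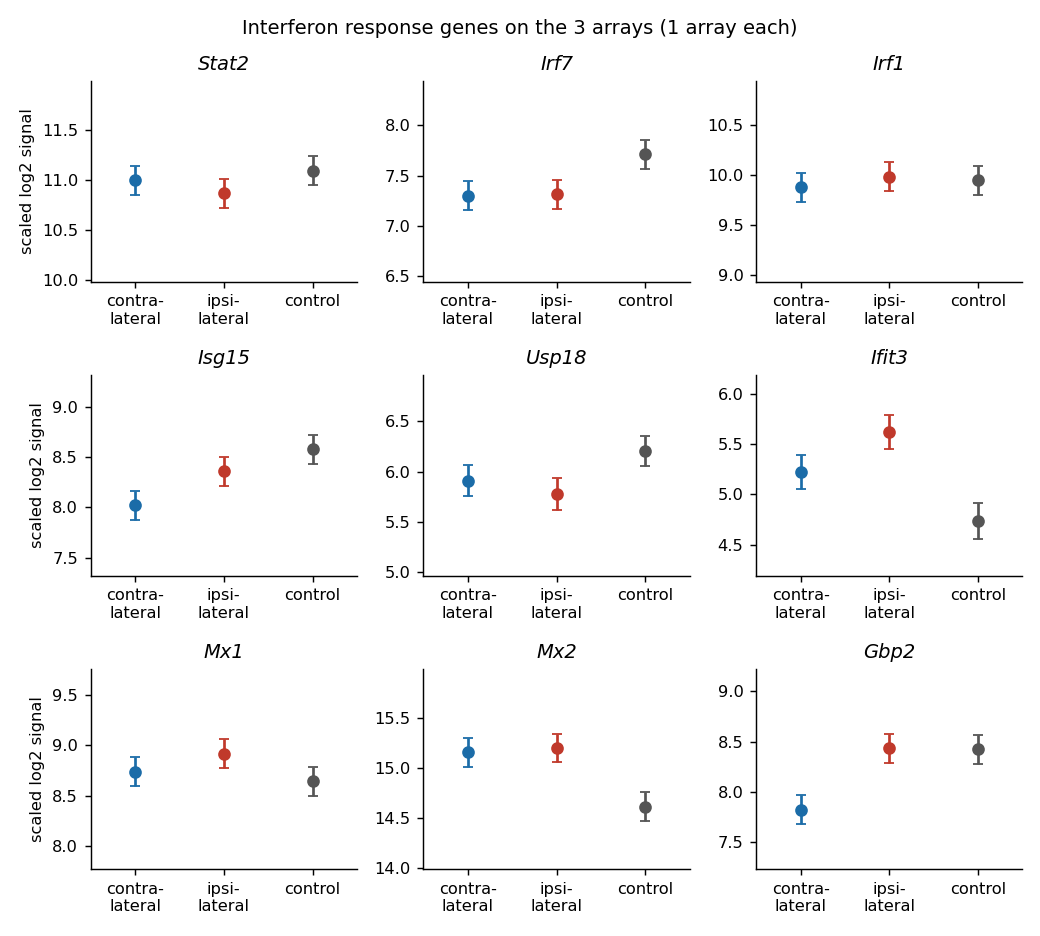
Scaled log2 signal of each of the 9 members (vertical axis, each panel spanning 2 log2 units) for the 3 groups, 1 array each, with bars for the scanner error. Ifit3, Mx1 and Mx2 sit lowest in the control, and Irf7, Isg15, Usp18 and Stat2 sit highest there. Mx1 and Stat2 differ from control contralaterally by less than their scanner error, and Irf1 does so on both sides. Gbp2 sits low on the contralateral array alone.

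Among the transcription factors, Stat2, a partner of IRF9 in type I signalling, had scaled log2 signals of 10.99 contralaterally, 10.86 ipsilaterally and 11.09 in the control. Its log2 ratio to control was -0.09 ± 0.20 contralaterally and -0.22 ± 0.20 ipsilaterally, the latter slightly past its scanner error. Irf7, which amplifies type I interferon production and is itself induced by interferon, gave 7.30 contralaterally, 7.31 ipsilaterally and 7.71 in the control. It was lower than control by similar amounts on both sides, with log2 ratios of -0.41 ± 0.21 and -0.40 ± 0.21, which became -0.25 and -0.19 with normexp. These placed Irf7 above 8.42% of all genes contralaterally and above 7.23% ipsilaterally. Irf1, an interferon-induced factor that drives antigen presentation genes, gave 9.88, 9.98 and 9.95, and its ratios of -0.07 and 0.04 lay within their error of 0.20. The ipsilateral ratio of Irf1 was -0.50 without scaling, and it was negative as well under spike-in scaling and in the deposited values.

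In the ISG15 system, Isg15, a ubiquitin-like protein that is attached to other proteins, gave scaled log2 signals of 8.02 contralaterally, 8.36 ipsilaterally and 8.58 in the control. The contralateral log2 ratio was -0.56 ± 0.20, lower than that of all but 4.92% of genes, and the ipsilateral ratio was -0.22 ± 0.20, and with normexp they were -0.35 and -0.12. Usp18, which removes ISG15 from proteins and restrains the type I receptor, gave 5.91, 5.78 and 6.21. Its log2 ratio to control was -0.30 ± 0.21 contralaterally and -0.43 ± 0.22 ipsilaterally, although with normexp these became -0.08 and 0.01, both within that error. Both genes had their highest signal in the control. The contralateral and ipsilateral signals of Usp18 differed by less than their error (0.13 ± 0.22), while those of Isg15 differed by -0.34 ± 0.20.

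Among the antiviral effectors, Ifit3, of a family that binds foreign RNA and aids signalling from its sensors, was the member farthest above control on the ipsilateral side. Its scaled log2 signals were 5.22 contralaterally, 5.62 ipsilaterally and 4.74 in the control. The log2 ratio was 0.49 ± 0.25 contralaterally and 0.88 ± 0.25 ipsilaterally, and the latter exceeded that of 95.4% of all genes. Ifit3 is dim, with 31.2 to 39.7 units before scaling, and belonged to the dimmest group when the genes were split into 4 groups of like size by brightness. In that group 583 of 5817 genes lay above 1 ipsilaterally, the median ratio was 0.20, and the negative control spots had a median ratio of 0.52. With 50 added to the signal the ratios of Ifit3 were 0.19 contralaterally and 0.37 ipsilaterally, and with normexp 0.21 and 0.58. Mx2 lay above Ifit3 on the ipsilateral side with 50 added (0.58). Without scaling the ipsilateral ratio of Ifit3 was 0.35, and the part of the dim-signal shift in it was not tested.

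Mx1 and Mx2 encode dynamin-like GTPases that block viral replication. Mx1 gave 8.74 contralaterally, 8.92 ipsilaterally and 8.64 in the control. Its ratio to control was 0.10 ± 0.20 contralaterally and 0.28 ± 0.20 ipsilaterally, and both turned negative without scaling (-0.06 and -0.26). Mx2 was far brighter than background on every array, at 38430 units contralaterally, 30389 ipsilaterally and 29332 in the control before scaling, with no saturated spot. On the scaled log2 axis these were 15.15, 15.20 and 14.61. The log2 ratio of Mx2 to control was 0.54 ± 0.20 contralaterally and 0.58 ± 0.20 ipsilaterally, above 95.1% and 91.1% of all genes. It remained positive in all 10 alternatives on both sides, although it was only 0.05 ipsilaterally without scaling. The sides themselves differed by -0.04 ± 0.20.

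Gbp2, a guanylate-binding protein induced mainly by interferon gamma, was the member that differed most between the sides. It gave 7.82 contralaterally, 8.44 ipsilaterally and 8.42 in the control. The contralateral log2 ratio to control was -0.60 ± 0.20, the lowest of the 9, and the ipsilateral ratio was 0.01 ± 0.20, which became -0.52 without scaling and was negative as well under spike-in scaling and in the deposited values. Between the sides the log2 ratio was -0.61 ± 0.20, lower than all but 5.94% of genes, and it was negative in all 10 alternatives, from -0.61 to -0.23. Without scaling, other members differed more between the sides than Gbp2 (-0.23), Usp18 the most (0.52). For comparison, spots of the same probe on 1 array had a median SD between 0.046 and 0.047 on the log2 scale, so the scanner error is wider than the spread between spots.

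Between the contralateral and ipsilateral sides, 7 of 9 members were lower contralaterally, and 3 of these (Isg15, Ifit3 and Gbp2) by more than their scanner error. Over all genes, 54.2% were lower contralaterally, 19.1% by more than their error, with a median of -0.01 against -0.11 for the members. Ordered by this ratio, Gbp2 (-0.61), Ifit3 (-0.40), Isg15 (-0.34), Mx1 (-0.18) and Irf1 (-0.11) came first, followed by Mx2 (-0.04), Irf7 (-0.01), Stat2 (0.13) and Usp18 (0.13). Neighbours in that order differed by less than the larger of their errors, and from Mx1 onwards each ratio lay within its error of 0. Only Stat2, Ifit3 and Gbp2 kept the sign of this ratio in all 10 alternatives.

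**Figure D2:**
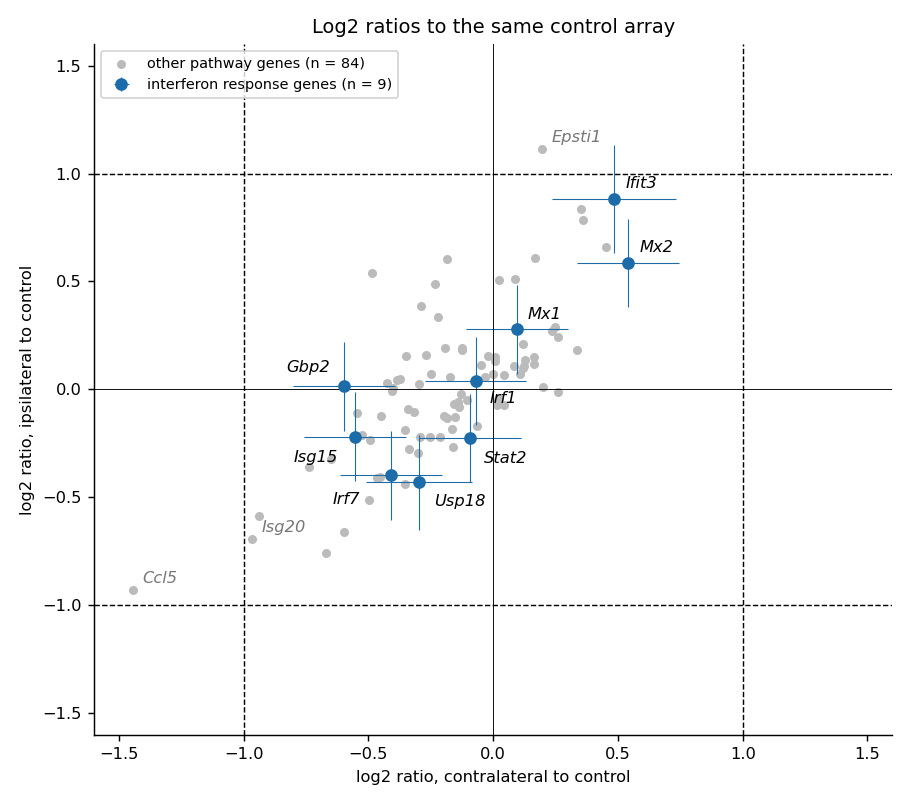
Log2 ratio to control on the contralateral side (horizontal) and the ipsilateral side (vertical) for the 9 members, with bars for the scanner error, and for 84 other pathway genes in grey. Dashed lines mark 1 and -1, and both axes share 1 control array. No member lies beyond a dashed line, and among the other genes Ccl5 and Epsti1 do.

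Other genes of the interferon pathway were read from 8 lists by role. Of 140 listed genes, 111 had a probe here, and 84 of these were well above background on all 3 arrays, 15 on some and 12 on none. The median log2 ratio of the 84 was -0.16 contralaterally and 0.02 ipsilaterally. Contralaterally, 56 of 84 were lower than control, 38 by more than their scanner error, and 6 were higher by more than it. Of all genes, 48.1% were lower there, 19.6% by more than their error, and 18.1% were higher by more than it. The share lower by more than the error depended on brightness. It was 28.8%, 25.7%, 15.1% and 8.94% of genes from the dimmest of the 4 brightness groups up. Ipsilaterally, 19 of 84 were lower and 17 higher by more than the error, against 16.7% and 24.9% of all genes. Relative to the median of all genes, the contralateral median of the pathway genes was -0.17, between -0.17 and -0.11 over all settings, while the ipsilateral one was -0.02 and turned positive in 1 alternative. Ccl5 alone lay below -1 contralaterally, where 1.04% of all genes did, and Epsti1 alone lay above 1 ipsilaterally, where 3.47% did. Between the sides only Phf11 lay below -1, where 1.99% of all genes did.

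Upstream of the members, the interferons themselves were dim. Of 5 ligand genes on the array, only Ifnk, an epithelial type I interferon, was well above background on all 3 arrays, and Ifng, encoding interferon gamma, was on none. Ifnk has 2 probes, of which 1 was well above background throughout. Over both probes its ratios were 0.35 ± 1.03 and 0.83 ± 1.03, and the brighter probe alone gave 0.66 and 1.17. The receptors were close to control. Ifngr2, a chain of the interferon gamma receptor, had the largest contralateral ratio of 4 receptor genes (0.17 ± 0.20) and Il10rb, a chain shared with interleukin 10, the smallest (0.01 ± 0.20). Ipsilaterally the extremes were Ifngr1 (0.14 ± 0.20) and Ifnar1, a chain of the type I receptor (-0.04 ± 0.15), and all 4 receptor genes lay within their error on both sides.

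Of 8 sensors and adaptors, Myd88, the adaptor of most Toll-like receptors, was highest on both sides (0.25 ± 0.20 and 0.29 ± 0.20). Sting1, the adaptor for cytosolic DNA sensing, was lowest contralaterally (-0.74 ± 0.50), while its brighter probe alone gave -0.31 and normexp -0.08. Ikbke, a kinase that activates IRF3 and IRF7, had ratios of -0.60 ± 0.15 and -0.66 ± 0.16, which became -0.16 and -0.03 with normexp. The list's median was -0.20 contralaterally and -0.01 ipsilaterally, but 0.04 and 0.16 with normexp. Among 10 Janus kinases, STATs and IRFs, with medians of -0.11 and 0.01 (-0.03 and 0.18 with normexp), Stat3 was highest ipsilaterally (0.21 ± 0.20). Irf4, a lymphoid factor, was highest contralaterally (0.26 ± 0.86), but its brighter probe alone gave -0.24.

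The 8 negative regulators had medians of 0.06 and 0.14. Pias1, an inhibitor of STAT signalling, was the highest of them on both sides (0.45 ± 0.21 and 0.66 ± 0.21), and it remained above control in all 10 alternatives. Samhd1, which depletes nucleotides, was lowest contralaterally (-0.27 ± 0.22, and -0.01 with normexp). Adar, an RNA-editing enzyme, was lowest ipsilaterally (-0.07 ± 0.15).

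The type I antiviral effectors were the longest list, with 35 genes well above background on all 3 arrays. Contralaterally their median log2 ratio was -0.25, with 25 of 35 lower than control, 17 of them by more than the scanner error. Of all genes, 48.1% were lower, 19.6% by more than their error. From the dimmest brightness group up, 3 of 11, 7 of 12, 6 of 9 and 1 of 3 effectors were lower beyond error. The shares of all genes in those groups were 28.8%, 25.7%, 15.1% and 8.94%. Ipsilaterally the median was -0.01, with 9 lower and 9 higher by more than the error, against 16.7% and 24.9% of all genes. With normexp the 2 medians were -0.10 and 0.20. Between the sides, 28 of 35 were lower contralaterally, 18 by more than the error and none higher by more than it, where 19.1% and 7.81% of all genes were, and the median was -0.27. Relative to the median of all genes, this median between the sides lay between -0.26 and -0.12 over all settings, with 24 to 28 genes below it. Dim spots were lower contralaterally in general. Negative control spots had a median of -0.46 between the sides, and the dimmest of the 4 groups by brightness a median of -0.24, with 7.22% of its genes below -1. The 11 effectors in that group had a median of -0.33, 5 of them lower by more than the error, where 43.6% of its genes were. In the next group the 12 effectors had a median of -0.16 against -0.02 for all its genes, with 6 lower by more than the error against 20.6%. In the group after it the 9 effectors had -0.32 against 0.02, with 6 lower against 7.19%, and in the brightest the 3 effectors had -0.06 against 0.0034. Isg20, an exonuclease that degrades viral RNA, was lowest on both sides (-0.97 ± 0.22 and -0.70 ± 0.22), although these were -0.43 and -0.03 with normexp. Bst2, named after its values were seen, had -0.94 ± 0.14 and -0.59 ± 0.14. With normexp Bst2 lay below Isg20 on both sides, at -0.78 and -0.46. Ifi27l2b, a relative of the interferon-inducible Ifi27, was highest contralaterally (0.36 ± 0.07) and reached 0.79 ± 0.07 ipsilaterally. Epsti1, an interferon-induced gene named for epithelial-stromal interaction, had a log2 ratio of 1.11 ± 0.25 ipsilaterally and 0.20 ± 0.27 contralaterally. It is dim, at 25.2 to 37.6 units before scaling, and its ipsilateral ratio was 0.58 without scaling and 0.43 with 50 added to the signal. Phf11 had a ratio of -1.03 ± 0.48 between the sides, which became -0.52 with only its probe well above background. The ratio was -0.43 with normexp and -0.18 with 50 added to the signal.

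The interferon-gamma inducible GTPases and chemokines had medians of -0.25 contralaterally and -0.22 ipsilaterally over 7 genes, and the ipsilateral one turned to 0.12 with normexp. Ccl5, a chemokine for T cells and monocytes, was the lowest, with scaled log2 signals of 6.19 contralaterally, 6.70 ipsilaterally and 7.63 in the control. Its log2 ratio was -1.44 ± 0.15 contralaterally and -0.93 ± 0.15 ipsilaterally, and these were -0.87 and -0.48 with normexp. Igtp, an immunity-related GTPase, was the highest on both sides (0.26 ± 0.15 and 0.24 ± 0.15), and the ipsilateral value turned negative without scaling. In antigen processing, all 11 genes had a lower signal contralaterally than ipsilaterally, where 54.2% of all genes did. Of the 11, 6 were lower by more than the error (19.1% of all genes). Relative to the median of all genes, 7 to 11 were lower over the settings. The median of the list between the sides was -0.14, but 0.24 without scaling and 0.01 with spike-in scaling. Cd74, the chaperone of MHC class II, was lowest contralaterally (-0.55 ± 0.07), and B2m, the light chain of MHC class I, was highest there (0.01 ± 0.20). RT1-Da, an MHC class II chain, was highest ipsilaterally (0.49 ± 0.15) with probes averaged. Ciita, the transactivator of MHC class II, named after its values were seen, had 0.03 ± 0.58 ipsilaterally over its 2 probes, but 1.04 with only its probe well above background. Psmb9, a subunit of the immunoproteasome, was lowest ipsilaterally (-0.24 ± 0.21, and -0.10 with normexp).

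**Figure D3:**
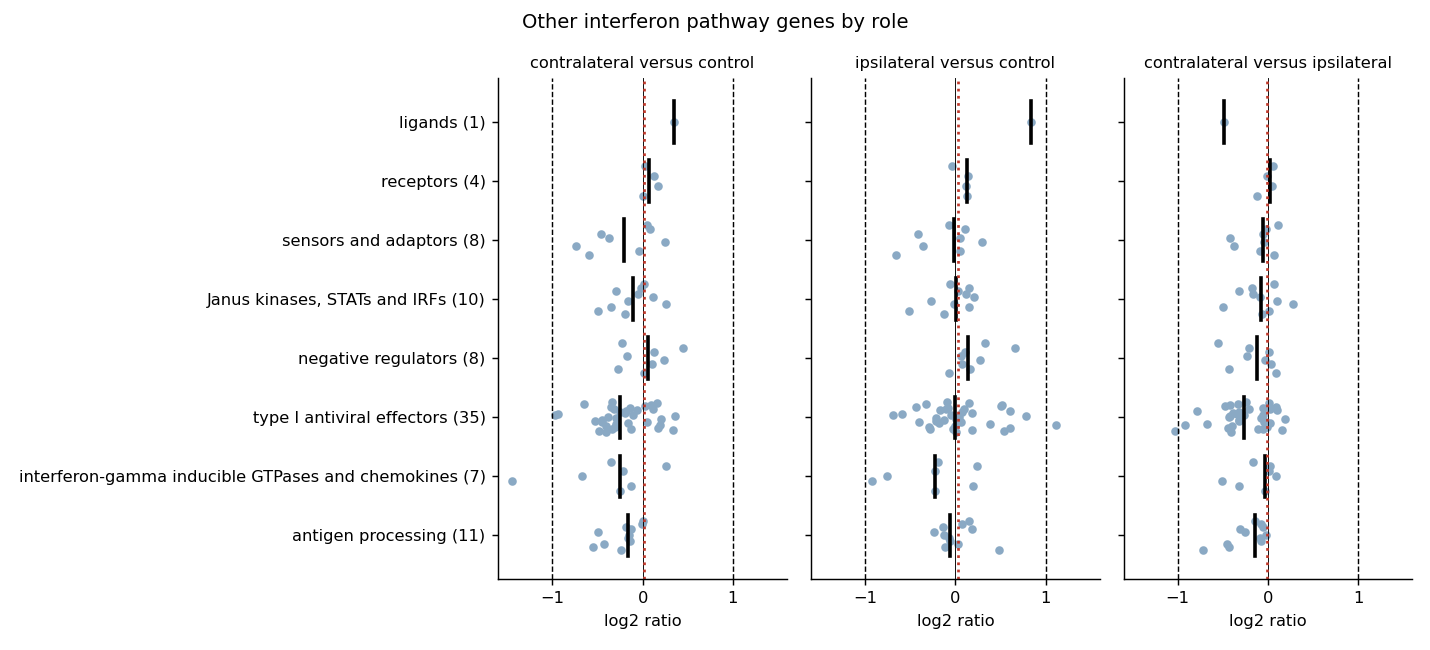
Log2 ratios (horizontal) of 84 other interferon pathway genes well above background on all 3 arrays, by role with the number of genes in brackets, in the 3 comparisons. Points are genes, black bars list medians, the red dotted line the median of all genes and dashed lines 1 and -1. Type I antiviral effectors have a median of -0.25 contralaterally and -0.01 ipsilaterally relative to control.

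For genes below background on an array, a fold value was computed against the lowest signal well above background there or the gene's own signal, whichever was higher. The former gives a lower bound. The latter gives the measured ratio to a signal that was not well above background. Of the 15 pathway genes well above background on some arrays, those with 1 probe and a value of at least 2-fold against control are named here. They were chosen after their values were seen. Nos2, Gbp4 and Ifna2 have 2 probes each, and no value is given for them. Ipsilaterally, Slfn4 was at least 4.96-fold and Oasl at least 3.98-fold higher than control. The measured ipsilateral ratios to control were 6.88-fold for Ifi47, 3.83-fold for Cxcl9 and 2.53-fold for Trim21. In the other direction, the measured ratio of control to contralateral was 5.20-fold for Oas3. All 6 values fell under 2-fold with normexp or with 50 added. At the lowest they were 1.81-fold for Ifi47, 1.59-fold for Slfn4, 1.44-fold for Oasl, 1.44-fold for Cxcl9, 1.23-fold for Trim21 and 1.20-fold for Oas3. That of Trim21 was also under 2-fold without scaling (1.75-fold). Each of these values rests on 1 dim probe, with no more than 63.6 units on the brighter array, and dim spots were raised on the ipsilateral array after scaling.

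Markers of the cells in the tissue were read in the same way, and those that define cerebellar cortex were present. In the lists of granule cells, Purkinje cells, and Bergmann glia and astrocytes, 8 of 8 genes each were well above background on all 3 arrays. Their medians lay between -0.08 and 0.14 on both sides, with Cbln1 (-0.10 and -0.08), Itpr1 (0.22 and 0.16) and Aqp4 (-0.55 and -0.45) the brightest genes of their lists by mean log2 signal over the arrays. That order compares different probes and does not measure abundance, and S100b was brighter than Aqp4 on the contralateral and ipsilateral arrays. Of the 8 glial genes, 2 were lower than control by more than their error on both sides, Aqp4 and Gfap (-0.73 and -0.66), and 2 were higher, S100b (0.17 and 0.12) and Gdf10 (0.39 and 0.27), the last 3 named after their values were seen. Among microglia and macrophage markers, 10 of 11 were well above background on all 3 arrays, with medians of 0.24 contralaterally and 0.55 ipsilaterally. Without scaling these medians were 0.09 and 0.01. Of the 10, 6 were higher than control by more than their error on each side, and 1 was lower contralaterally, Aif1 (-0.29 and -0.10), named after its values were seen. Their summed scaled signal was 13355 contralaterally, 16801 ipsilaterally and 9732 in the control, and the brightest gene, C1qb, had ratios of 0.62 ± 0.06 and 0.98 ± 0.06. Lymphocyte markers were mostly near background, with 3 of 11 above it on all 3 arrays and Cd3e on none of them. The 3 had medians of 0.03 and -0.03 and summed signals of 289, 276 and 240. Nkg7, the brightest by mean over the arrays, had ratios of 0.87 ± 0.15 and 0.74 ± 0.15, Cd8a of -0.57 ± 0.23 and -0.43 ± 0.24, and Cd3d of 0.03 ± 0.15 and -0.03 ± 0.15. With normexp those of Cd8a became -0.15 and 0.10, and the ipsilateral ratio of Cd3d 0.21. Of 7 neutrophil and monocyte markers, 3 were well above background on all 3 arrays, with medians of 0.16 and 0.88 and summed signals of 128, 175 and 109. Lcn2, the brightest by mean over the arrays, had ratios of -0.06 ± 0.22 and 0.88 ± 0.22, S100a9 of 0.58 ± 0.23 and 1.04 ± 0.23, and S100a8 of 0.16 ± 0.24 and -0.19 ± 0.27. With normexp the ipsilateral ratios were 0.63 for Lcn2, 0.62 for S100a9 and 0.26 for S100a8. All 6 of these dim lymphocyte, neutrophil and monocyte genes are given, 4 of them named after their values were seen.

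Markers of vessels, coverings of the brain, choroid plexus and blood had medians below control contralaterally. The 9 endothelial and pericyte markers had medians of -0.27 and -0.26 and summed signals of 5290 contralaterally, 5435 ipsilaterally and 6564 in the control, with Cldn5 at -0.19 and -0.14. Of these 9, 6 were lower by more than their error contralaterally, and 5 were lower and 1 higher ipsilaterally. The 6 markers of leptomeningeal fibroblasts had medians of -0.87 and -0.46, summed signals of 7138, 9626 and 12261, and ratios of -0.85 and -0.37 for Col1a2. On each side 4 of the 6 were lower by more than their error, and the other 2, Dcn (-0.03 and 0.23) and Pdgfra (0.04 and 0.14), named after their values were seen, were higher ipsilaterally by more than it, Pdgfra only barely. Choroid plexus markers, 7 of 8 well above background on all 3 arrays, had medians of -0.67 and 0.30 and summed signals of 10772, 76708 and 34040. Ttr, the brightest of them, had ratios of -1.73 ± 0.06 and 1.19 ± 0.06. Of the 7, 6 were lower by more than their error contralaterally, and ipsilaterally 5 were higher and 1 lower, Slc4a5 (-2.12 and -1.20, but -0.55 and -0.16 with normexp), named after its values were seen. With normexp the contralateral medians were -0.46 for the leptomeningeal and -0.39 for the choroid plexus list, and the ipsilateral ones -0.15 for the leptomeningeal and -0.10 for the endothelial list. Without scaling the ipsilateral choroid plexus median turned to -0.23. Of 4 erythroid markers, 2 were well above background throughout, with medians of -1.29 and -1.58 and summed signals of 1261, 1110 and 2563, and Hba-a1 had ratios of -0.88 and -1.03. Between the sides, Gbp2 and 28 of the 35 type I effectors had a lower signal contralaterally, 18 of the 28 by more than the scanner error. Of all genes, 54.2% were lower there, 19.1% by more than their error. Without scaling the effector median between the sides turned to 0.11. Marker medians between the sides were -0.33 for leptomeningeal, -0.92 for choroid plexus, -0.04 for endothelial, -0.30 for microglial and 0.29 for erythroid genes. The part of leptomeningeal, choroid plexus, vascular, blood or microglial cells in the ratios of the interferon genes was not tested.

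**Figure D4:**
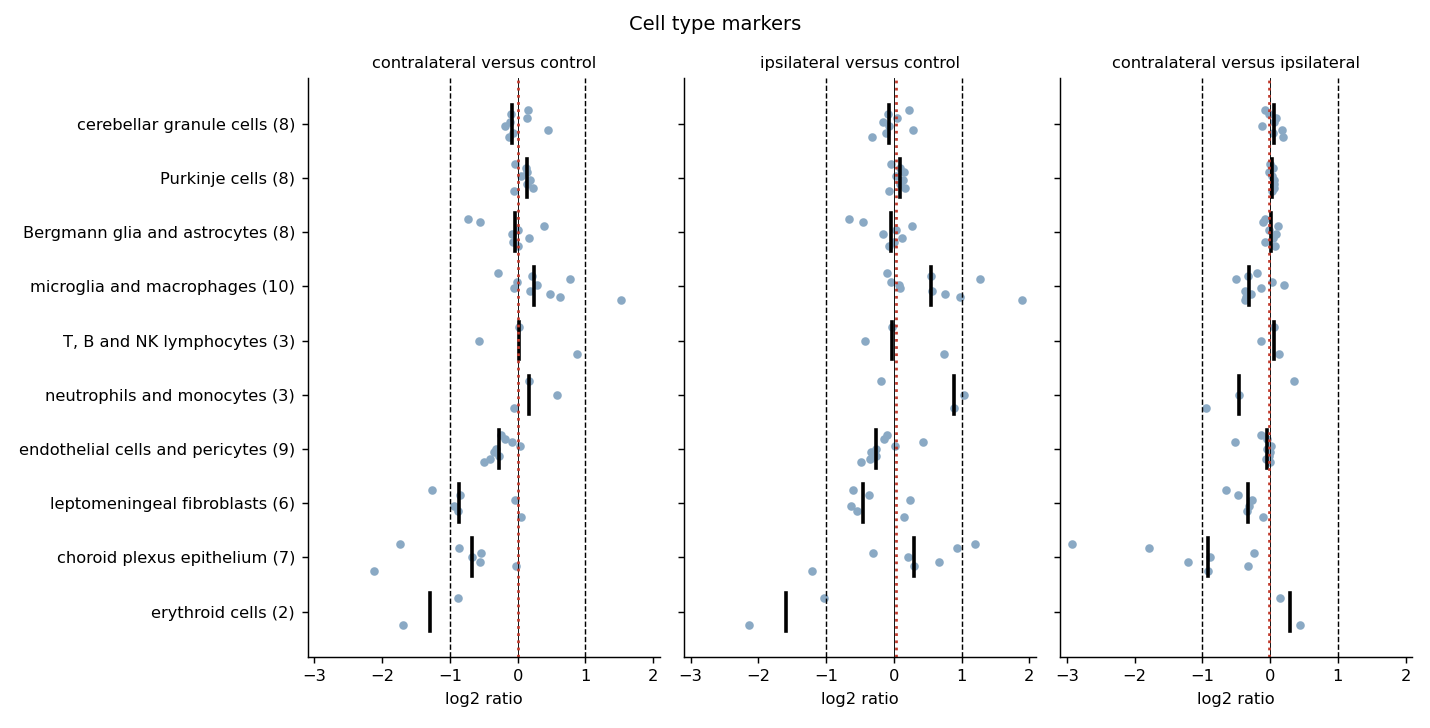
Log2 ratios (horizontal) of cell type markers well above background on all 3 arrays, by list with the number of genes in brackets, in the 3 comparisons. Points are genes, black bars list medians, the red dotted line the median of all genes and dashed lines 1 and -1. Leptomeningeal and erythroid medians lie below 0 on both sides relative to control, and the choroid plexus median is -0.67 contralaterally and 0.30 ipsilaterally (-0.23 without scaling).

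The genes outside the lists nearest to the mean of the members, which was -0.10 contralaterally and 0.06 ipsilaterally, were Hsd17b1, Dgcr2 and Pfkfb3. Their distances over the 2 ratios were 0.0053, 0.0056 and 0.0064 among 11832 named genes searched. Of these genes, 914 (7.72%) lay within 0.1 of that mean, so that a mean near 0 is shared with many genes.

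**Figure D5:**
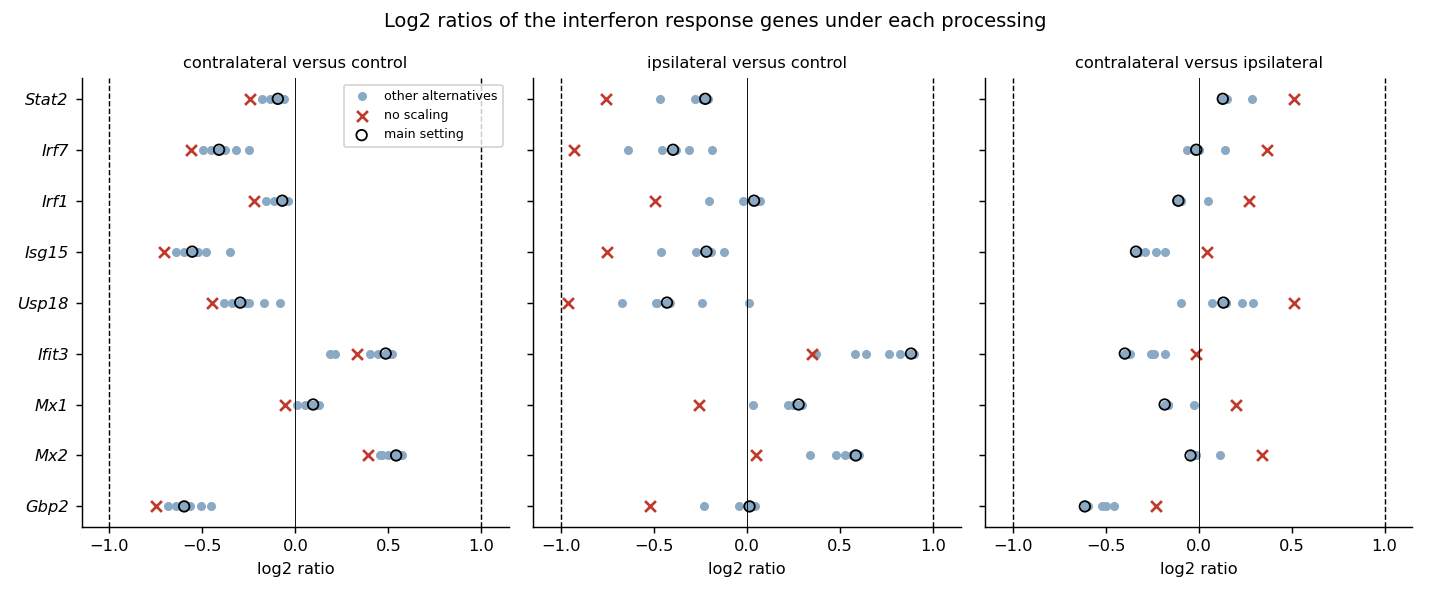
Log2 ratios (horizontal) of the 9 members in the 3 comparisons under the main setting (open circles), without scaling (crosses) and under the other alternatives (filled points). Dashed lines mark 1 and -1. No value passes them. For the ipsilateral ratio to control, the value without scaling is the lowest of each member, and for Ifit3 (0.35) it lies close to the value with 50 added (0.37).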

How the data were processed

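Cy3-labelled RNA was hybridised to 1-colour Agilent arrays, and the authors deposited spot intensity as read and background-subtracted by Agilent Feature Extraction 12.1.0.3, unscaled between arrays. All 3 arrays shared 1 slide and 1 scan. The deposited value table held the same linear intensities times 1 factor per array (1.12 contralateral, 1.45 ipsilateral, 1.04 control, with medians of 139, 140 and 147). The methods mention normalizing transcript values to control samples per chip, and whether these factors are that step is not stated.

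The log2 of the processed signals was shifted to a common 75th percentile over non-control spots. The 759 outlier spots were left out, spots averaged per probe and probes per gene. A RefSeq symbol of GRCr8 was found for 17622 of 39957 accessions, and the others kept their accession. Ratios carry the software's error per spot. The number of arrays limits the precision, and with 1 array per group no test was run.

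The members and lists were chosen with earlier results of these data known. Named genes were the members, the extremes of each role list on each side, list genes past 1 or -1, the brightest gene of each marker list and the 3 genes nearest the members' mean pair of ratios. Not every gene so chosen is reported here. As alternatives, arrays were left unscaled, scaled to their median or to 8 spike-in probes, or quantile normalized. Others were normexp (offset 50), the deposited values, adding 50 to each signal, using only probes well above background or the brightest probe, and keeping outlier spots. Counting of calls was tested on simulated data. Software was Python 3.11.15 (numpy 2.4.6, pandas 2.3.3, matplotlib 3.10.9) and R 4.3.3 (limma 3.58.1).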

Additional observations from a re-analysis of the deposited data

Results flagged for a closer look

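Of 93 members and pathway genes well above background on all 3 arrays, 5 lay below control contralaterally and above it ipsilaterally, each by more than its scanner error, and no member did. Of all 23267 genes well above background on every array, 378 (1.62%) did. The scanner error is averaged over spots and probes, so genes with more spots pass it at smaller ratios. Errors to control were 0.06 to 0.15 for the 5 genes, while each member had 1 spot and an error of at least 0.20. With 1 array per group and a shared control these differences were not tested. The contralateral minus ipsilateral log2 ratio was -0.79 for Ifitm1 (-0.19 and 0.60 to control), -0.72 for RT1-Da (-0.23 and 0.49) and -0.56 for Socs3 (-0.22 and 0.33). It was -0.38 for Ifitm3 (-0.19 and 0.19) and -0.32 for Ifitm2 (-0.25 and 0.07). Of the 5, only Ifitm1 stayed above control ipsilaterally in all 10 alternatives. The contralateral ratio of Socs3 was 0.01 with its brighter probe alone.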

How the results depend on the processing

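The count of members past 1 or -1 was 0 in each comparison under all 10 alternatives, with ratios from -0.96 (Usp18, ipsilateral, no scaling) to 0.90 (Ifit3, ipsilateral, median scaling). Of 270 member ratios, 35 moved by more than their scanner error, 18 of them without scaling.

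Values below are given as ipsilateral to control unless named otherwise. Without scaling, the median was -0.52 for the members and -0.52 for the pathway lists, and between the sides 0.27 and 0.28. With spike-in scaling both ipsilateral medians were -0.23. The percent of genes above 1 and below -1 was 0.726 and 5.48 without scaling, 1.93 and 1.9 with spike-in scaling, 0.507 and 0.0516 with normexp, and 0.417 and 0.133 with 50 added; below -1 it was 1.46 with quantile normalization. For contralateral to control it was 0.223 and 0.086 with normexp, 0.254 and 0.163 with 50 added, and 1.74 below -1 without scaling. Between the sides it was 0.86 and 0.627 without scaling, 0.387 and 1.23 with spike-in scaling, 0.658 and 0.885 with quantile normalization, 0.0129 and 0.0602 with normexp, and 0.0559 and 0.0731 with 50 added. Normexp with an offset and 50 added compress ratios of dim spots by construction; for the others the cause was not tested.

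Genes above 1 and below -1 numbered 349 and 243 contralaterally, 808 and 202 ipsilaterally, and 57 and 462 between the sides. The share above 1 among these calls was 59.0% contralaterally and 80.0% ipsilaterally. For the 3 comparisons in that order it became 37.6%, 11.7% and 57.8% without scaling, and 46.9%, 50.4% and 23.9% with spike-in scaling. It was 72.2% and 90.8% to control with normexp, 62.1% ipsilaterally and 42.6% between the sides with quantile normalization, and 43.3% between the sides with 50 added. No paired analysis was possible because each group had 1 array.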
